A study of Oryza sativa Japonica Group with 4 samples.

Results

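The DREB1 and DREB2 genes of rice encode transcription factors of cold and drought responses, and they are described here in roots of N-starved seedlings with and without ammonium nitrate. Genes were taken where the symbol or a synonym, after dropping a leading Os, began with DREB1 or DREB2. This gave 13 genes, 9 of DREB1 and 4 of DREB2. Of these, 8 genes were linked to a probe set in the array annotation, 5 of DREB1 and 3 of DREB2, by 11 probe sets paired with 1 gene out of 57194 on the array. *DREB1F*, *DREB1H*, *DREB1I*, *DREB1J* and *DREB2C* were linked to no probe set there and were not analysed here. Seeds of the japonica cultivar TNG67 were grown in hydroponics without N, and the 17-day-old seedlings were moved for 30 min either to fresh solution lacking N (−N) or to one that held ammonium nitrate at 1.43 mM (+N). All seedlings had thus been starved of N. Each group had 2 biological replicates of root RNA, 1 Affymetrix Rice Genome Array each, and nothing in the labels says whether replicates came from separate cultures, so p-values measure only the spread between these samples.

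DREB proteins carry an AP2 domain, through which they bind the dehydration-responsive element, also called the C-repeat, in promoters of stress genes. The DREB1 genes, known as *CBF* genes in Arabidopsis, are switched on within minutes to hours of cold in many plants, and their products activate dehydrin and other protective genes. DREB2 genes are better known for responses to drought, salt and heat. The genes below are compared between −N and +N roots, with no cold or drought treatment in the design.

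The array measures genes through probe sets, whose brightness is given as intensity. Over the whole array the median intensity was between 17.1 and 17.8 on the replicate 1 arrays and between 25.2 and 25.4 on the replicate 2 arrays, in both groups alike. Values under 5.16 were raised to this floor, log2 values were compared by limma across all probe sets, and a gene was said to have risen or fallen where it differed 2-fold or more with p under 0.05 before adjustment. By this rule 266 probe sets were higher in +N (0.465%) and 8 lower (0.014%), while 694 (1.21%) had an unadjusted p under 0.05. Once limma p-values were adjusted by Benjamini-Hochberg, 0 did so. After each array was centred on its median, 35 probe sets had an adjusted p under 0.05. Leaving out −N replicate 2 gave 543 higher, and leaving out +N replicate 2 gave 159. The number lower was 413, 229, 5 and 35 without −N replicate 1, −N replicate 2, +N replicate 1 and +N replicate 2. The root silicon transporter *Lsi1* read between 7224 and 9869 on every array, while *OsSCR1*, a root patterning gene, was dim (10.9 to 16.2). Some leaf markers were bright in these roots too, with the chlorophyll-binding protein gene *CAB2R* between 7870 and 11216. Others were dimmer, with *OsPSAG* between 75.5 and 145 and *RBCS1* between 3.97 and 5.49, near the floor. The summed intensity of 8 leaf markers, of which *CAB2R* was the largest part, overlapped between −N (12416 and 22083) and +N (16960 and 19985).

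Of the 8 measured DREB genes, 1 rose and 0 fell. With 1 probe set a gene, the brightest, the share of all 17905 genes that rose was 1.01% and the share that fell 0.0223%. A looser count asked whether both +N arrays lay above both −N arrays. This held for 3 DREB genes, *DREB1A*, *DREB1B* and *DREB2B*, against 9.23% of all genes and 7.23% of probe sets. The reverse held for 0 DREB genes, against 5.12% of genes and 6.68% of probe sets. Within each replicate number, *DREB1A* and *DREB1B* had higher signals in +N and *DREB1G* and *DREB1E* lower ones. Only the change of *DREB1A* passed the test, so the directions of the others are descriptions. The paper had already listed *DREB1A* and *DREB1B* as raised on these same arrays, so counts that hold them are descriptions too.

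*DREB1A* (LOC4347620, chromosome 9), the rice counterpart of *CBF3* by its synonym, had the largest change of the measured DREB genes. Its probe set read 64.4 and 125 on the −N arrays and 1469 and 1171 on the +N arrays. Both +N arrays were far above both −N arrays. The mean log2 intensity was 6.49 ± 0.67 in −N and 10.36 ± 0.23 in +N (SD, n = 2). The log2 fold change was 3.87 (standard error, SE, 0.41, 95% confidence interval 2.63 to 5.11, unadjusted p = 0.00159, adjusted p = 1 from limma), a 14.6-fold rise. Replicate 1 gave 22.8-fold and replicate 2 gave 9.39-fold, and the arrays differed more in −N than in +N. Among all rice probe sets, only 12 had a larger increase, which placed *DREB1A* in rank 13. After each array was centred on its median, the adjusted p of *DREB1A* was 0.0162, and 0.0377 when dim probe sets were dropped, while the other alternatives gave 0.373 to 1. The paper lists *DREB1A* among the genes raised by ammonium nitrate on these arrays, and reports a rapid and strong induction of it by qRT-PCR. In RNA of roots in bulk, more RNA per cell and more cells that express the gene cannot be told apart.

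**Figure D1:**
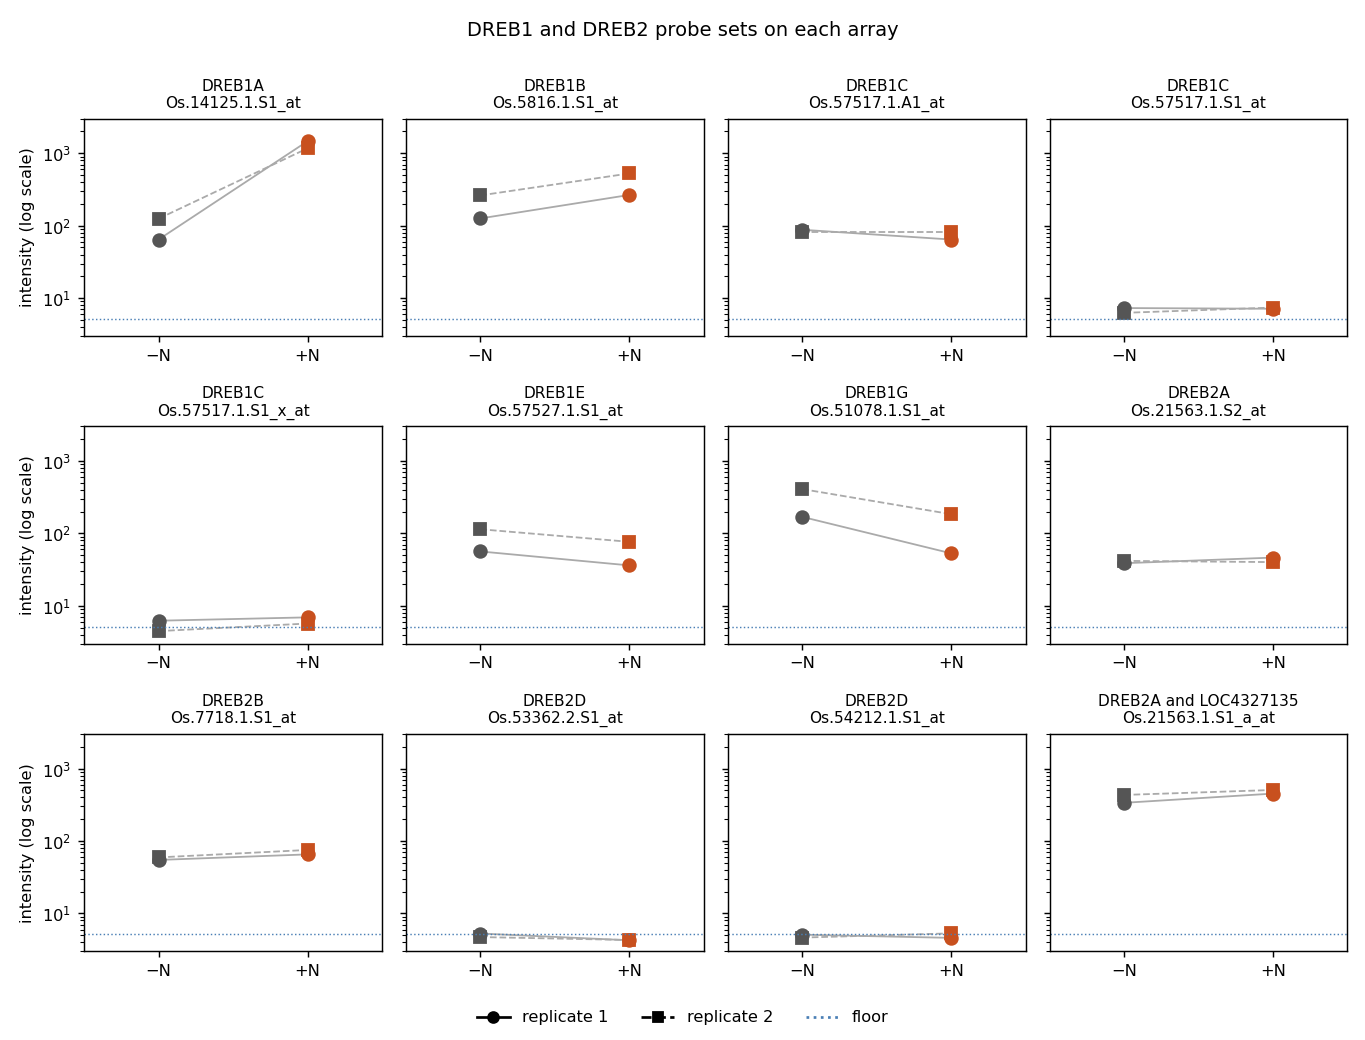
Intensity (log scale) of each DREB1 and DREB2 probe set on the 4 arrays, with −N and +N on the x axis, circles for replicate 1, squares for replicate 2, a line joining arrays of the same number and a dotted line at the floor of 5.16. *DREB1A* climbed from 64.4 and 125 to 1469 and 1171, *DREB1B* ran upward and *DREB1G* and *DREB1E* downward in parallel lines, and the other probe sets were nearly level.

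*DREB1B* (LOC4347618, chromosome 9), which in rice is also a cold-inducible gene, showed a smaller difference in the same direction. Its probe set read 126 and 262 in −N and 266 and 527 in +N. The groups did not overlap, but the lower +N array was barely above the higher −N array. The log2 fold change was 1.05 (SE 0.58, 95% confidence interval -0.68 to 2.77, unadjusted p = 0.157 from limma) and did not pass the test used here. The paper lists *DREB1B* among the genes raised by ammonium nitrate and reports qRT-PCR for it. Within replicate numbers the ratio was nearly the same, 2.12-fold on the replicate 1 arrays and 2.02-fold on the replicate 2 arrays. For *DREB1B* the arrays of replicate 2 were brighter by 1.06 on the log2 scale in −N and by 0.99 in +N, where the median over all probe sets was 0.35 and 0.36. A ratio of at least 2 in both replicate numbers was found for 213 probe sets (0.372%), or 0.81% of genes by their brightest probe set. It was found for 2 of the 8 DREB genes, *DREB1A* and *DREB1B*. The paper had already listed both as raised on these same arrays, so this count is a description and no test. Once each array was centred on its median, *DREB1B* passed the 2-fold rule (log2 fold change 1.07, unadjusted p = 0.00842, adjusted p = 1). Its log2 fold change was 0.52 or 1.58 without −N replicate 1 or 2 and 1.54 or 0.55 without +N replicate 1 or 2, and none of these passed.

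*DREB1A* and *DREB1B* lie close together on chromosome 9, with 1 gene, *DREB1H*, between them in the gene table of assembly ASM3414082v1. Whether a probe set of one of these related genes also reads another was not tested. The log2 ratio of the *DREB1A* to the *DREB1B* signal was -0.96 and -1.07 on the −N arrays and 2.47 and 1.15 on the +N arrays. All arrays of +N lay above those of −N. The response of *DREB1A* was larger by 2.83 on the log2 scale, a 7.09-fold difference, and by 3.43 and 2.22 within replicates 1 and 2. An exact two-sided permutation of the arrays gave p = 0.333. This is the smallest that 2 arrays against 2 allow, so the test cannot decide whether the responses differ. Of the 11 genes within 5 places of either gene, 5 were linked to a probe set, and 0 of these rose or fell. Among all genes 1.01% rose and 0.0223% fell, so 0 of 5 says little. The log2 fold changes of these neighbours ran from -0.41 to 0.61, with a median of 0.13. The highest was that of LOC4347621, 2 places beyond *DREB1A*, which read 63.4 and 93.8 in −N and 105 and 132 in +N (unadjusted p = 0.113). *GEN1*, a nuclease gene beside *DREB1B*, read 39.1 and 70.5 in −N and 51.3 and 69.2 in +N, which overlap. LOC4347614 (389 and 806 in −N, 421 and 424 in +N), LOC4347615 (445 and 664, then 504 and 705) and LOC4347626 (614 and 963, then 621 and 854) overlapped too.

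*DREB1G* (LOC4330306, chromosome 2), which raises tolerance of water deficit when overexpressed in rice, had the largest difference in the other direction among them. Its probe set read 169 and 409 in −N and 53.0 and 184 in +N. The groups overlapped, because +N replicate 2 was above −N replicate 1. The log2 fold change was -1.41 (SE 0.86, 95% confidence interval -3.99 to 1.17, unadjusted p = 0.19 from limma), which did not pass the test. Within replicate 1 the −N signal was 3.19-fold the +N signal, and within replicate 2 it was 2.22-fold. A signal at least 2-fold lower in +N in both replicate numbers was found for 5 probe sets of the whole array (0.00874%), and *DREB1G* was 1 of them. This count pairs arrays by replicate number, and the labels do not say that arrays of the same number belong together. By genes it was 1 of 2 (0.0112%), the other being LOC4352648, which was singled out after its values were seen (122 and 170 in −N, 44.5 and 78.3 in +N). The annotation links the remaining 3 probe sets to no gene. After median centring *DREB1G* passed the 2-fold rule (log2 fold change -1.39, unadjusted p = 0.0141, adjusted p = 1). Leaving out 1 array gave log2 fold changes of -2.05 and -0.77 without −N replicates 1 and 2 and of -0.51 and -2.31 without +N replicates 1 and 2, none past the test.

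*DREB1E* (LOC4336721, chromosome 4) resembled *DREB1G* on a smaller scale. Its probe set read 56.3 and 114 in −N and 36.1 and 76.4 in +N. The groups overlapped, and within replicate numbers the signal of −N was 1.56-fold and 1.49-fold that of +N. The log2 fold change was -0.61 (SE 0.59, 95% confidence interval -2.37 to 1.15, unadjusted p = 0.37 from limma). Without 1 array it ran from -1.15 to -0.07, and it passed under none of the settings run. *DREB1B*, *DREB1E* and *DREB1G* shared a further feature, that the replicate 2 array was brighter by 0.99 to 1.80 on the log2 scale in both groups. *DREB1A* had this in −N (0.95) but not in +N (-0.33). What set the replicate numbers apart was not tested.

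**Figure D2:**
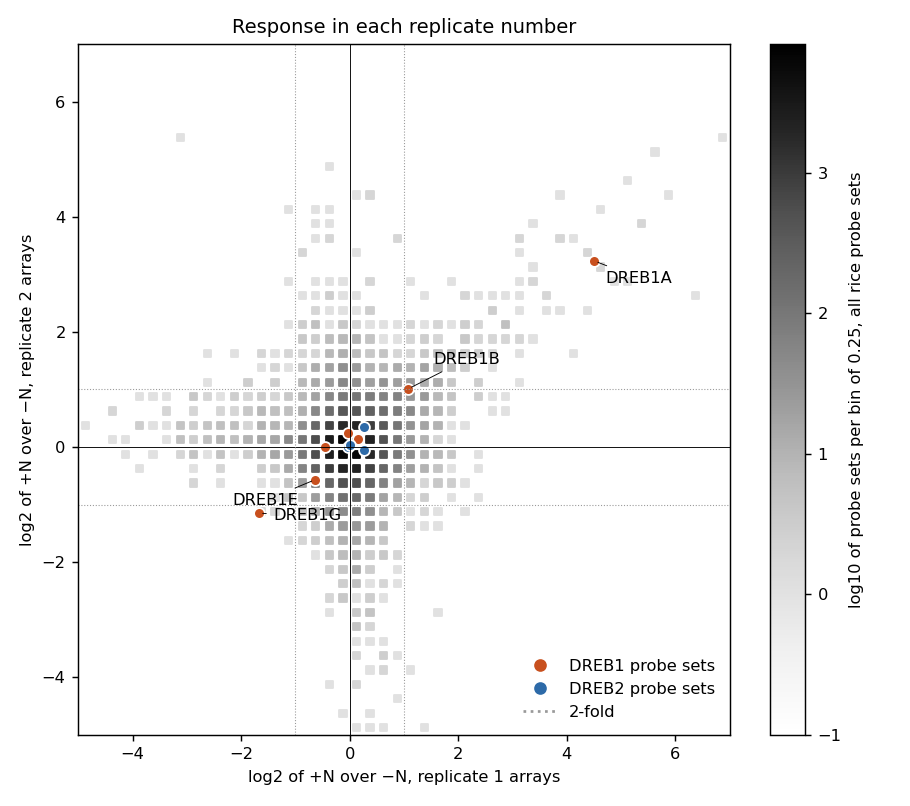
Log2 ratio of +N to −N on the replicate 1 arrays (x axis) against that on the replicate 2 arrays (y axis), with all rice probe sets as grey bins of 0.25 shaded by the log10 of their number, DREB1 probe sets as orange points and DREB2 probe sets as blue points. Ratios beyond the axes are drawn at the edge. *DREB1A* is at the upper right (4.51 and 3.23), *DREB1B* just past 2-fold on both axes (1.08 and 1.01) and *DREB1G* past it in the other direction (-1.67 and -1.15), where few probe sets lie.

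*DREB1C* (LOC4339974, chromosome 6, also named *CBF1*) was measured by 3 probe sets, and 0 of them passed the test. The brightest read 87.9 and 82.6 in −N and 64.4 and 82.6 in +N, with a log2 fold change of -0.22 (95% confidence interval -0.82 to 0.37, unadjusted p = 0.334 from limma). The others read between 4.47 and 7.40 on every array, close to the floor, so they give little information on this gene.

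Of the 3 measured DREB2 genes, 0 passed the test. *DREB2A* (LOC4324418, chromosome 1), a factor of drought responses, read 38.7 and 41.7 in −N and 46.3 and 40.1 in +N by its own probe set. These overlap, and the log2 fold change was 0.10 (95% confidence interval -0.39 to 0.60, unadjusted p = 0.577 from limma). For the signal of this dim probe set the interval leaves out a 2-fold change in either direction, with 2 arrays a group. How well this signal follows the RNA of the gene was not tested. A brighter probe set is paired with both *DREB2A* and the gene after it, LOC4327135. It read 337 and 433 in −N and 452 and 507 in +N, a log2 fold change of 0.32 (unadjusted p = 0.204), and cannot be assigned to either gene. *DREB2B* (LOC4338484, chromosome 5), which like *DREB1G* raises tolerance of water deficit when overexpressed in rice, read 54.8 and 59.4 in −N and 65.4 and 75.3 in +N. Both +N arrays were higher, by 1.19-fold and 1.27-fold within replicate numbers, with a log2 fold change of 0.30 (SE 0.17, 95% confidence interval -0.20 to 0.79, unadjusted p = 0.16 from limma). *DREB2D* (LOC4339084, chromosome 5) read between 4.26 and 5.31 on its 2 probe sets over all arrays, at or under the floor on most of them, and no change could be measured.

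Genes around the DREB factors were drawn from lists of gene names. Among all 17905 genes 1.01% rose and 0.0223% fell, so in lists this short a count of 0 or 1 says little. The list of other AP2/ERF genes holds only genes matched by name and does not cover the family. The paper lists further AP2/ERF genes, besides the DREB1 genes, among those raised by ammonium nitrate. Of the 4 measured genes on the name list, 0 rose or fell. Their median log2 fold change was -0.01, against 0.018 over all genes. *SHAT1*, an AP2 gene of seed shattering, read 112 and 174 in −N and 252 and 277 in +N, and its groups did not overlap. Its log2 fold change of 0.92 (SE 0.28, unadjusted p = 0.0405 from limma) was under 2-fold, and its other probe sets had 0.68 and 0.85. *EREBP-1* read between 2318 and 2999, with a log2 fold change of 0.12, and *AP2-1*, a regulator of starch synthesis, had one of -0.14.

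Of 8 measured genes on a list of candidate regulators of DREB1 genes, 0 rose or fell, against 1.01% and 0.0223% of all genes. Their log2 fold changes ran from -0.27 to 0.39 and the median was 0.02. The list is broad and includes *PhyB*, and whether each gene acts on DREB1 genes was not tested. *MYBS3*, which represses *DREB1* genes in rice during long cold, read 994 and 1266 in −N and 1002 and 1202 in +N, which overlap. *MYB4*, another cold regulator, had 1439 and 1294 in −N and 1210 and 1054 in +N (log2 fold change -0.27, unadjusted p = 0.194 from limma), without overlap. Its dimmer probe set had 262 and 239 in −N and 244 and 222 in +N, which overlap. *OsSAPK8*, a kinase of osmotic stress signalling, read between 1263 and 1460 over all arrays, with a log2 fold change of 0.02.

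Among 13 measured genes of cold and drought output, which include targets of DREB factors, 0 rose or fell, against 1.01% and 0.0223% of all genes. Their median log2 fold change was 0.16, and 3 had both +N arrays above both −N arrays, against 9.23% of all genes. *LIP9*, a dehydrin gene that overexpressed *DREB1A* activates in rice, read 1557 and 2648 in −N and 3623 and 4000 in +N. Its log2 fold change was 0.91 (SE 0.33, unadjusted p = 0.0628 from limma), 1.22 on the replicate 1 and 0.60 on the replicate 2 arrays, while its dimmer probe sets had 0.22 and 0.37. *TPP1*, a trehalose phosphatase gene, read 192 and 406 in −N and 493 and 573 in +N (log2 fold change 0.93, SE 0.45, unadjusted p = 0.12). The third gene without overlap was *RAB21*, a dehydrin gene induced by abscisic acid, at 12.7 and 18.8 in −N and 21.5 and 22.3 in +N. This signal was dim. The other *RAB21* probe set was dimmer still and overlapped between the groups, with a log2 fold change of 0.08. *salT*, a salt-induced lectin gene, read 523 and 659 in −N and 560 and 1280 in +N, and *P5CS1* of proline synthesis 427 and 912 in −N and 528 and 924 in +N, both with overlap. The dimmer probe set of *salT* read 365 and 413 in −N and 418 and 766 in +N, without overlap. *LEA19* and *RAB16B*, *RAB16C* and *RAB16D* overlapped as well.

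Of 6 cold and drought transcription factors from other families 1 rose, *NAC5*, where 1.01% of all genes rose and 0.0223% fell. *NAC5* read 1012 and 1369 in −N and 6495 and 6790 in +N (log2 fold change of 2.50, unadjusted p = 0.00084 from limma). Its dimmer probe sets had log2 fold changes of 3.37 and 3.60. *NAC6* read 898 and 1073 in −N and 713 and 840 in +N, a log2 fold change of -0.34 (unadjusted p = 0.165). *ABF2*, a bZIP factor of abscisic acid responses, read 730 and 1375 in −N and 1174 and 1726 in +N, which overlap. Of 20 genes on a list of reference gene names, many of them tubulin genes, 0 rose or fell, and their median log2 fold change was -0.11. How widely each is expressed was not checked.

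**Figure D3:**
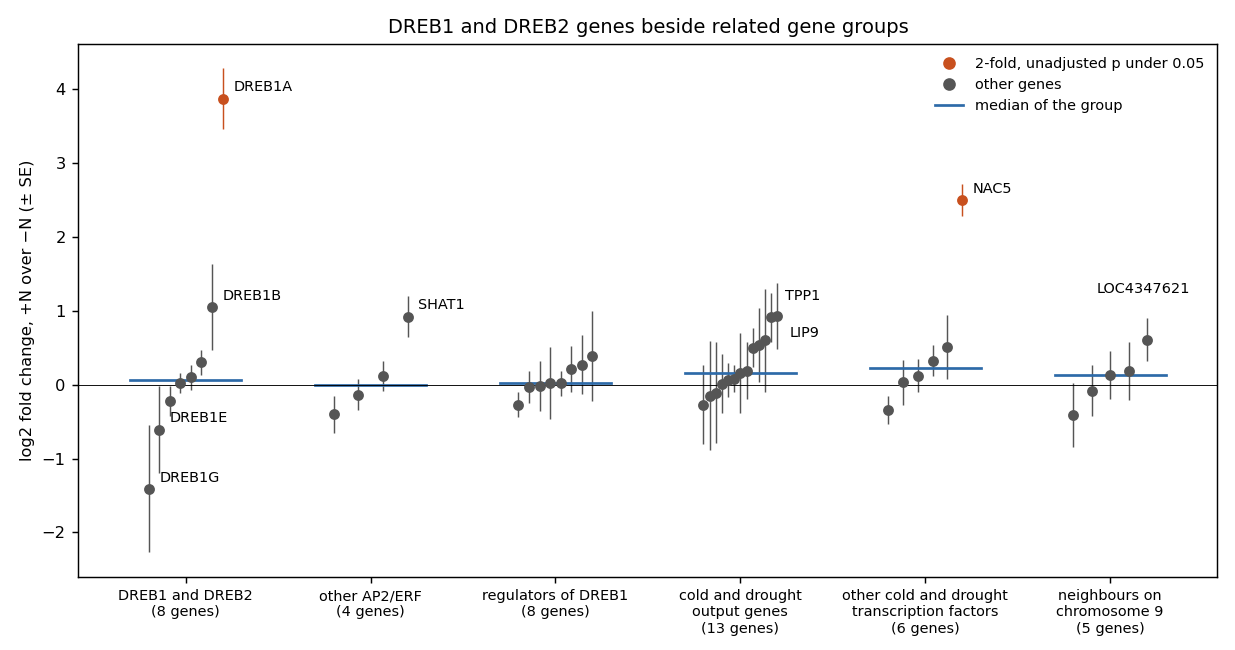
Log2 fold change of +N over −N (y axis, bars ± 1 standard error from limma) for DREB1 and DREB2 genes, 4 lists of related genes and the neighbours of *DREB1A* and *DREB1B*, each gene by its brightest probe set, with a blue line at the median of each group. *DREB1A* (3.87) and *NAC5* (2.50) are the genes that passed the 2-fold rule, and the medians of the 4 lists lie between -0.01 and 0.22.

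The named genes whose pattern over the 4 arrays was most like that of *DREB1A* were sought among 2459 named genes, as the distance between log2 profiles each centred on its own mean. *OsC3H37*, a zinc finger gene, was nearest (0.56), with 115 and 133 in −N and 1797 and 1698 in +N. It was followed by *NRT2.2* (0.76), a nitrate transporter gene, *NIA1* (0.78), a nitrate reductase gene, *FNR* (0.87), a ferredoxin reductase gene, and *ADF-5* (1.18), an actin-depolymerizing factor gene. For *DREB1B* the nearest were *AMY1.3* (0.26), an alpha-amylase gene, *PSS2* (0.32), *NAC2* (0.35), *myb17* (0.42) and *MDAR5* (0.43), with log2 fold changes from 0.93 to 1.17, of which 0 passed the test. With 4 arrays such likeness is a description only, and genes share the brightness of the arrays.

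**Figure D4:**
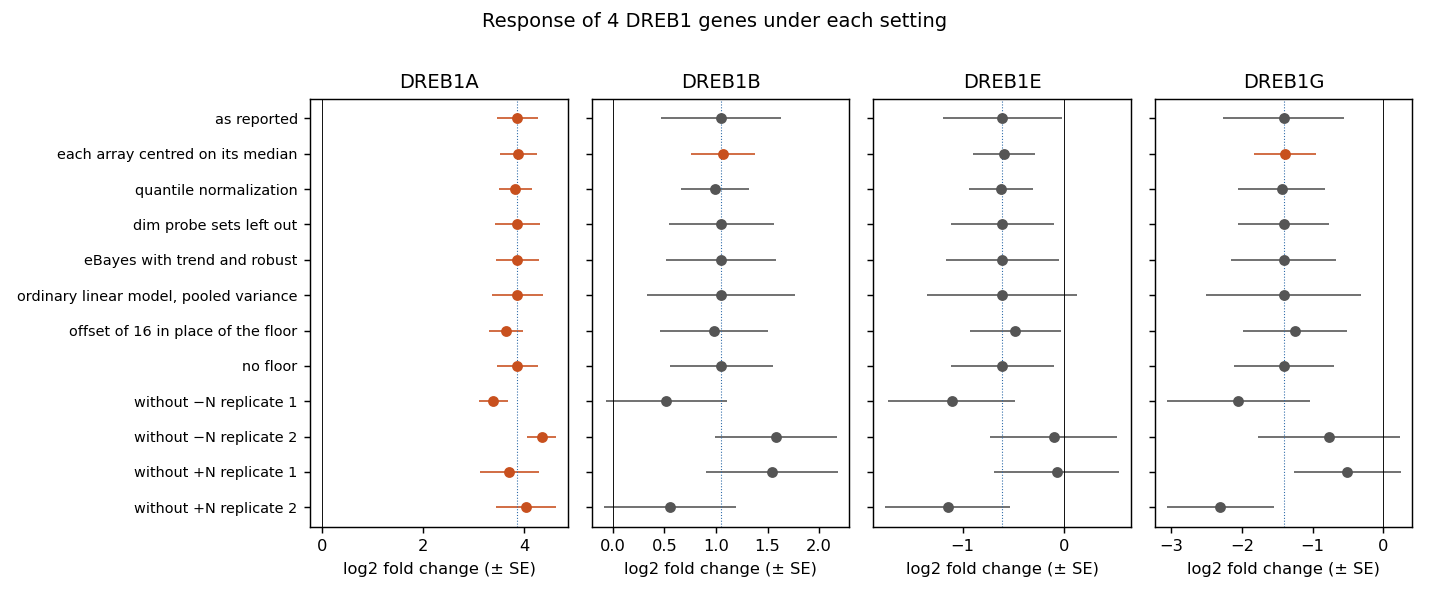
Log2 fold change of +N over −N (x axis, bars ± 1 standard error) of *DREB1A*, *DREB1B*, *DREB1E* and *DREB1G* under each setting named on the y axis, in orange where the groups differed 2-fold or more and p was under 0.05 before adjustment. *DREB1A* stays between 3.39 and 4.35 and is orange throughout, *DREB1B* and *DREB1G* are orange after median centring, and *DREB1E* in no row.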

How the data were processed

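RNA of −N and +N roots was labelled and hybridized by the authors to 4 Affymetrix Rice Genome Arrays. The deposited tables hold linear intensities summarized per probe set, 1 column an array, without pooling. GCOS and RMA are named in the submitters' processing notes. The sources used here state neither what each did nor how values were normalized, and the columns do not share a distribution.

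From 57381 probe sets 187 controls were left out. Values under the 5th percentile, 5.16, were set to it (3.59% to 6.92% of an array), and limma 3.58.1 (R 4.3.3) was fitted to log2 values with group as the only term. Thresholds (2-fold, p under 0.05) followed the methods of the paper, which name no adjustment. Of 57194 probe sets, 22436 are paired with 1 gene, all found in the gene table of assembly ASM3414082v1, which served for names, chromosomes and gene order only, and 95 with several. A gene is represented by its brightest probe set.

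The members and lists were chosen with earlier results of these data known. Lists were drawn by name patterns, and 8 genes of other families that matched were removed by name. Named were all members and neighbours, list members that were called or among the 3 brightest, and the 5 named genes of nearest profile. Other list members named were picked with their values in view. The alternatives were: median centring, quantile normalization, dim probe sets left out, trend and robust moderation, a pooled variance, a block for replicate number, an offset of 16, no floor, other fold thresholds, other probe set rules and leaving out each array. The fit was tested on simulated data. Plots were made in matplotlib 3.10.9. Precision is limited by having 4 arrays.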

Additional observations from a re-analysis of the deposited data

How the results depend on the processing

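The direction and call of *DREB1A* were the same under all 14 alternatives run, with log2 fold changes from 3.39 to 4.35. *DREB1B* kept its direction, with log2 fold changes from 0.52 to 1.58 without 1 array, and passed the 2-fold rule after median centring (1.07). Median centring gave 2 DREB genes higher and 1 lower, against 1 and 0 as reported. Over the array it gave 353 probe sets higher, against 266. With it, 35 probe sets had an adjusted p under 0.05, against 0 as reported. It also turned a *DREB2D* probe set at the floor from -0.02 to 0.01. Over the array, the number of probe sets higher was 171 with pooled variance, 517 at 1.5-fold and 110 at 3-fold, and between 159 and 543 without 1 array, against 266. The number lower, 8 as reported, was 35 after median centring, 14 after quantile normalization, 18 with dim probe sets left out, 0 with pooled variance, 3 with the offset, 15 without a floor, 56 at 1.5-fold, 0 at 3-fold and between 5 and 413 without 1 array. In the 4 lists, 2 genes were higher at 1.5-fold and between 1 and 4 without 1 array, against 1. The cause of these shifts was not tested.

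Same-numbered arrays of both groups deviated together (correlation 0.561 over all probe sets), but the labels do not say that a number marks a shared batch. With the replicate number as a block, the log2 fold change of *DREB1B* was 1.05 (SE 0.09, unadjusted p = 0.00317, adjusted p = 0.802 from limma) and that of *DREB1G* was -1.41 (unadjusted p = 0.00984), and both passed the 2-fold rule. That of *DREB1E* was -0.61 (SE 0.09, unadjusted p = 0.0115 from limma), which is under 2-fold. The block gave 2 DREB genes higher and 1 lower, and 294 probe sets higher and 15 lower over the array, with 0 past the adjusted threshold.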
